A study of Cricetulus griseus with 6 samples.

Results

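The genes described here encode enzymes that cut the extracellular matrix and cell surface proteins, and the proteins that hold such enzymes in check. They comprise the matrix metalloproteinases (MMPs, Mmp genes), the ADAM and ADAMTS metalloproteinases, the tissue inhibitors of metalloproteinases (TIMPs) and the serpins. The rule for members used symbol and level and no difference between the conditions: a symbol that begins with Mmp, Adam or Timp and a number, or with Adamts or Serpin, and a mean of at least 0.1 FPKM (a read count scaled to the length of the exons and to the number of mapped reads) over the 6 libraries. Apart from 1 gene with such a symbol that was left out, 89 entries matched. Of these, 35 reached that level and are the members, among 14361 genes that reached it in all. Another 23 lay below it with a value above 0 in at least 1 library, and 31 were listed at 0 in every library. No member entered through 1 condition alone, since the mean of each condition was at or above 0.1 FPKM for all 35 and no library was at 0 for any of them. Just inside the limit stood Serpinb7 at a mean of 0.329 FPKM and Mmp21 at 0.464 FPKM, and just outside it Serpina7 at 0.0914 FPKM and Serpinf2 at 0.0843 FPKM.

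RNA-Seq was performed on CHO-T cells, a Chinese hamster ovary line that carries a T-cadherin (Cdh13) cDNA under a retroviral promoter, 48 h after transfection with negative control siRNA (3 libraries) or with Xbp1 siRNA (3 libraries). All libraries came from this transgenic line, without an untransfected group. XBP1 is a transcription factor of the unfolded protein response, through which cells adjust the folding capacity of the endoplasmic reticulum (ER). Xbp1 itself stood at 26.0, 26.2 and 28.4 FPKM in control replicates 1, 2 and 3 and at 2.18, 2.11 and 1.39 FPKM in Xbp1 siRNA replicates 1, 2 and 3, so that the mean after silencing was 7.05% of the control mean.

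MMPs, ADAMs and ADAMTS enzymes are zinc proteases made as inactive precursors that pass through the secretory pathway. MMPs cut collagens, laminins, proteoglycans and other matrix proteins, ADAMs release the outer parts of membrane proteins, and ADAMTS enzymes act on procollagens and proteoglycans. TIMPs bind the active site of metalloproteinases. Serpins trap serine proteases, among them the plasminogen activators, although some members of the family are not inhibitors at all.

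The sum of all FPKM values was 646651 to 666267 in control and 593487 to 600986 in Xbp1 siRNA libraries, lower without overlap. Entries above 0 numbered 15109 to 15185 in control and 15371 to 15545 in Xbp1 siRNA libraries. Absolute depth was not stated. From the steps between low values, relative depth was 94.0% and 98.0% of control replicate 1 in the other control libraries, and 102.5%, 98.2% and 116% in the Xbp1 siRNA libraries. Vim and S100a4 were present and Col1a1 and Col1a2 were listed at 0 in these cells, and the summed FPKM of 5 mesenchymal genes was 405.5 to 429 in control and 337 to 364 in Xbp1 siRNA libraries. Nearly all of that sum is Vim, with means of 377 and 304 FPKM, while Fn1 of the same list went from 13.1 to 23.4 FPKM (log2 fold change 0.83, limma adjusted p = 2.15e-05). The summed FPKM of epithelial markers, of which Krt18 and Krt19 were listed at 0, was 1.83 to 2.16 in control and 4.595 to 5.79 in Xbp1 siRNA libraries. The leukocyte sum was 5.18 to 6.15 against 7.05 to 8.86 FPKM, almost all of it Cd68, with Ptprc and Cd3e listed at 0, and the endothelial sum was at most 0.305 FPKM. What part these shifts have in the results was not tested, and with bulk RNA a change in the number of expressing cells and a change in RNA per cell cannot be told apart.

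Differences were tested on the log2(FPKM + 0.1) scale with limma over all 14361 genes, and fold changes on that scale understate the change of genes near 0.1 FPKM. A gene was taken as higher or lower after Xbp1 silencing at a Benjamini-Hochberg adjusted p under 0.05, and as past the fold limit, too, where the log2 fold change reached 1 or −1. Of the 35 members, 9 were higher and 6 lower, and 20 did not pass. These counts are 25.7% and 17.1% of the members, against 20.2% higher and 20.2% lower among all genes tested. With the fold limit 1 member (Mmp28, 2.86%) was higher and 1 (Mmp10, 2.86%) was lower, against 2.69% and 2.5% of all genes. The 3 libraries of each condition did not overlap for 11 members with higher and 8 with lower values (31.4% and 22.9% of the members), where 26.1% and 25.8% of all genes had no overlap. The members' median log2 fold change was 0.08 and their median absolute value 0.28, beside 0.006 and 0.27 over all genes. With 1 library left out the median log2 fold change of the members moved to 0.037 (without control replicate 2), 0.15 (without Xbp1 siRNA replicate 2) or 0.13 (without Xbp1 siRNA replicate 3). By these shares the members moved about as often and as far as genes in general, and the differences lay in particular members.

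**Figure D1:**
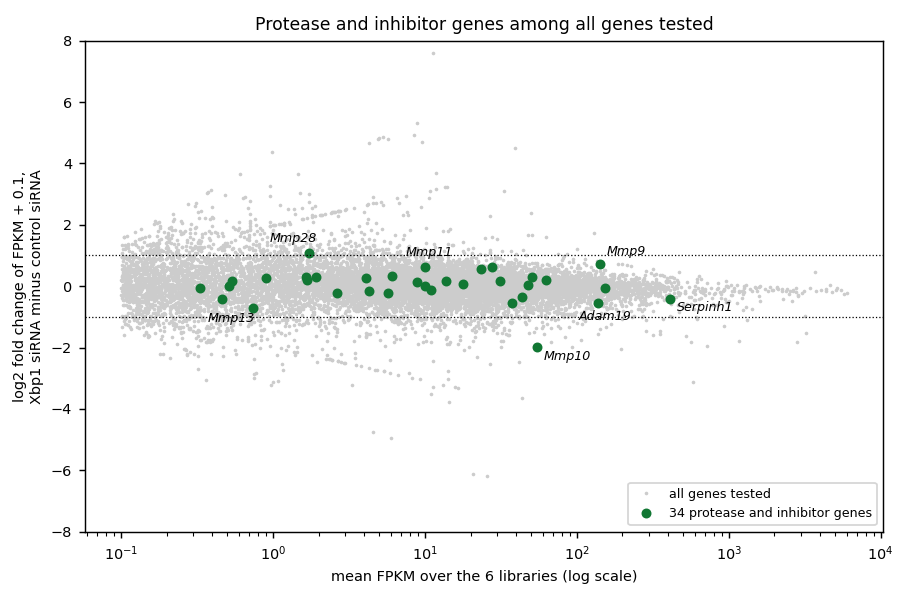
Log2 fold change of FPKM + 0.1 (Xbp1 siRNA minus control siRNA) on the vertical axis against the mean FPKM over the 6 libraries on a logarithmic horizontal axis, with the genes tested in grey, 34 of the 35 protease and inhibitor genes in green and dotted lines at the fold limit of 1. Mmp10 lies below the lower line at −1.97, Mmp28 just above the upper one at 1.08, and the other 32 members drawn lie between the lines.

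Mmp10 (stromelysin 2), which cuts proteoglycans, laminin and fibronectin and can activate other MMP precursors, had the largest difference of all members. It stood at 90.4, 89.7 and 83.3 FPKM in control replicates 1, 2 and 3 and at 23.4, 23.2 and 20.4 FPKM in Xbp1 siRNA replicates 1, 2 and 3. Every silenced library was far below every control library. The mean went from 87.8 ± 3.91 to 22.4 ± 1.71 FPKM (SD, n = 3 each), or 25.5% of control, and the log2 fold change was −1.97 (SE 0.065, 95% interval −2.12 to −1.82, limma adjusted p = 2.07e-06). It was the member ranked 5 by FPKM in control cells and 13 after silencing.

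In the RefSeq gene order of the Chinese hamster, Mmp10 lies in a row of MMP genes on 1 chromosome, after Dcun1d5, Mmp13, Mmp12, Mmp3 and a pair of genes without a symbol, and before Mmp8, Mmp27, Mmp20 and Mmp7. Mmp12, which encodes macrophage elastase, lies close to it and showed no such difference: 17.4, 18.9 and 15.9 FPKM in control and 21.4, 16.9 and 17.2 FPKM after silencing, with overlapping libraries (log2 fold change 0.08, 95% interval −0.17 to 0.33, limma adjusted p = 0.586). Mmp13, a collagenase, was low, at 17, 17 and 30 recovered reads in control and 13, 14 and 11 after silencing. Its libraries did not overlap in FPKM, but the difference of −0.72 (SE 0.29) did not pass (limma adjusted p = 0.0887). LOC100759664, 1 of the genes without a symbol, passed as lower (limma adjusted p = 0.041) on 1, 2 and 2 recovered reads in control and 1, 0 and 0 after silencing, too few for a fold, and the other was listed at 0. Mmp8, Mmp27, Mmp20 and Mmp7 were listed at 0 in all 6 libraries. Dcun1d5 at the edge of the row, which is no protease and was singled out after its value was seen, went from 42.1 ± 3.555 to 20.5 ± 1.02 FPKM (SD, n = 3 each), a log2 fold change of −1.03 (limma adjusted p = 3.72e-05). It was just under the fold limit without control replicate 1 (−0.96), without Xbp1 siRNA replicate 1 (−0.99), under quantile normalization (−0.99) and with a pseudocount of 1 (−0.997). Mmp3, a close relative of Mmp10 in sequence, is not analysed here, and how reads were divided between such relatives was not tested.

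Mmp9 (gelatinase B), which cuts denatured collagen and basement membrane collagen, moved the other way. Its values were 114, 104 and 105 FPKM in control replicates 1, 2 and 3 and 187, 170 and 172 FPKM in Xbp1 siRNA replicates 1, 2 and 3. All silenced libraries were higher, with means of 108 ± 5.26 and 176 ± 9.05 FPKM (SD, n = 3 each), a 1.63-fold difference (log2 fold change 0.71, SE 0.051, limma adjusted p = 4.41e-05). Mmp9 ranked 4 among the members in control cells and 2 after silencing.

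Mmp11 (stromelysin 3), an MMP that is activated inside the cell by furin, was also higher. It had 7.53, 8.12 and 7.89 FPKM in control and 12.2, 12.7 and 11.8 FPKM in the silenced libraries, with no overlap, and rose by 0.63 on the log2 scale (SE 0.067, limma adjusted p = 0.000283). Mmp28 (epilysin) was lower in level, at 1.13, 1.19 and 0.929 FPKM in control and 2.65, 2.32 and 2.21 FPKM after silencing. Its means were 1.08 ± 0.135 and 2.39 ± 0.232 FPKM (SD, n = 3 each), a 2.21-fold difference without overlap (log2 fold change 1.08, 95% interval 0.69 to 1.47, limma adjusted p = 0.0017). The log2 fold change of Mmp28 fell under the limit of 1 without control replicate 3 (0.98), under quantile normalization (0.97) and with a pseudocount of 1 (0.71), while its adjusted p stayed under 0.05. In RefSeq it overlaps CUNH17orf50, which had means of 1.59 and 1.69 FPKM (log2 fold change 0.11, limma adjusted p = 0.688), and how reads were assigned between them is not given in the sources used here.

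The remaining MMPs of the group listed here as secreted were at low level and none passed. Mmp19 had 4.02, 5.16 and 4.41 FPKM in control and 4.04, 4.40 and 3.62 FPKM after silencing (log2 fold change −0.17). Mmp23b had a log2 fold change of −0.24 and Mmp21 one of −0.42, with 12, 22 and 11 recovered reads of Mmp21 in control against 8, 10 and 16 after silencing. The libraries of all of these overlapped between conditions. Mmp2 (gelatinase A) was near 0, at 0 reads in the control libraries and 1, 1 and 0 reads in the silenced ones, so that Mmp9 was the gelatinase mRNA measured here.

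**Figure D2:**
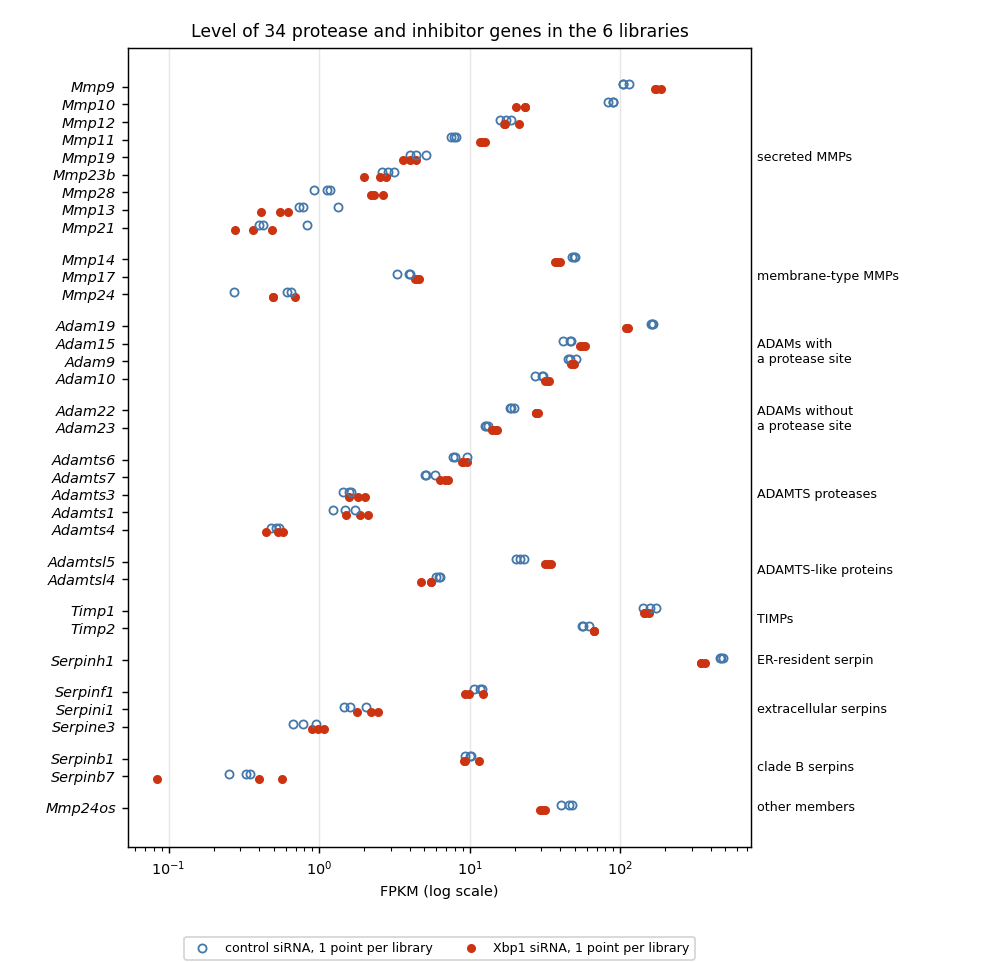
FPKM of 34 of the 35 members on a logarithmic axis, 1 point per library, with open blue circles for control siRNA and filled red circles for Xbp1 siRNA, ordered by role and by level within a role. The points of Mmp10 are far apart between conditions, those of Mmp9, Mmp11, Mmp28, Adam22 and Adamtsl5 are separated with the silenced libraries higher, and Serpinh1 is the highest member in both conditions.

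Among the membrane-type MMPs, which stay at the cell surface, Mmp14 (MT1-MMP, a collagenase and the activator of the Mmp2 precursor) was the most abundant. Its values were 47.8, 50.4 and 49.4 FPKM in control replicates 1, 2 and 3 and 39.9, 38.3 and 36.8 FPKM in Xbp1 siRNA replicates 1, 2 and 3. Mmp14 was lower in every silenced library, at 77.9% of the control mean (log2 fold change −0.36, SE 0.045, limma adjusted p = 0.000644). Mmp17, which is held by a lipid anchor, had 3.95, 3.27 and 4.04 FPKM in control and 4.502, 4.35 and 4.65 FPKM after silencing. Although its libraries did not overlap, the difference of 0.26 did not pass (limma adjusted p = 0.111). Mmp24 was low, with 19, 8 and 20 recovered reads in control and 22, 15 and 18 after silencing (log2 fold change 0.16, 95% interval −0.65 to 0.97).

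Mmp24os matches the symbol pattern but is named as the opposite-strand gene of Mmp24, which it overlaps in RefSeq, and is no MMP. It had 47.97, 46.1 and 40.3 FPKM in control and 29.6, 30.3 and 31.9 FPKM after silencing, lower without overlap (log2 fold change −0.55, SE 0.071, limma adjusted p = 0.000746). The library kit keeps strand, but whether the counting used it is not given in the sources used here, so reads of Mmp24 and Mmp24os may not be fully separated.

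FPKM is per length and can be summed over genes. The 12 MMP genes together held 291, 286 and 276 FPKM in control replicates 1, 2 and 3 and 299, 276 and 273 FPKM in Xbp1 siRNA replicates 1, 2 and 3. These sums overlapped, but they were not scaled to the total FPKM of each library. That total was lower in every silenced library (at most 600986) than in any control library (at least 646651). The overlap therefore does not show that the MMP total was unchanged. Within the sum the shares shifted. Mmp9 made up 39.2%, 36.5% and 38.1% of the MMP FPKM in control and 62.4%, 61.7% and 63.1% after silencing, while Mmp10 went from 31.1%, 31.3% and 30.1% to 7.83%, 8.43% and 7.48%. The share of Mmp14 was 16.4% to 17.9% in control and 13.3% to 13.9% after silencing. Mmp9 thus exceeded Mmp10 1.16 to 1.27 times in control libraries and 7.32 to 8.44 times in silenced ones. With 3 libraries against 3, an exact permutation test of such a ratio cannot give a two-sided p below 0.1, so these shares are given as a description.

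**Figure D3:**
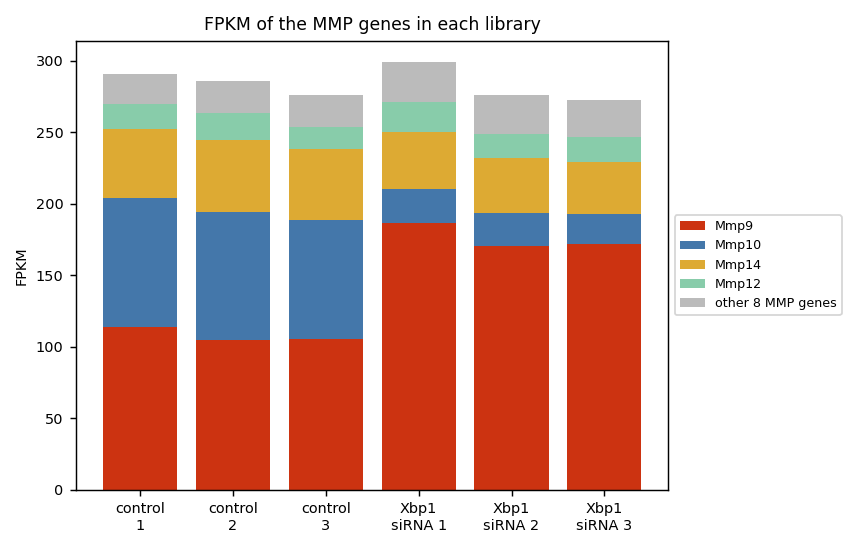
Stacked bars of the FPKM of the 12 MMP genes in each library, with Mmp9, Mmp10, Mmp14 and Mmp12 drawn separately and the other 8 genes together in grey. The bars have similar heights of 273 to 299 FPKM, while the Mmp10 segment is small and the Mmp9 segment large in the 3 Xbp1 siRNA libraries.

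Of the ADAMs with a protease site, 4 are among the members. Adam19 (meltrin beta), which sheds neuregulins, was the member ranked 2 in control cells, at 162, 166 and 160 FPKM. After silencing it had 113, 111 and 110 FPKM, below every control library, and its mean was 68.5% of control (log2 fold change −0.55, SE 0.031, limma adjusted p = 1.54e-05). Adam15 (metargidin) had 46.3, 42.1 and 47.0 FPKM in control and 58.4, 54.2 and 55.5 FPKM after silencing, higher without overlap (log2 fold change 0.31, SE 0.054, limma adjusted p = 0.00301).

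Adam10, the sheddase of Notch receptors and classical cadherins, did not pass. Its values were 27.1, 30.9 and 30.3 FPKM in control and 33.5, 33.6 and 31.8 FPKM after silencing, all above the control values, with a log2 fold change of 0.16 (95% interval 0.02 to 0.31, limma adjusted p = 0.0668). Only under quantile normalization, of the alternatives tried, was the limma adjusted p of Adam10 under 0.05 (0.0318). For Adam9 (meltrin gamma) the conditions overlapped, at 44.9, 46.5 and 51.1 FPKM in control and 47.2, 49.7 and 48.8 FPKM after silencing (log2 fold change 0.03, 95% interval −0.09 to 0.16). Both differences are bounded well below the fold limit by these intervals.

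Adam22 and Adam23 lack the catalytic residues and act as cell surface receptors for LGI proteins, best known at synapses. Adam22 had 18.5, 19.7 and 18.9 FPKM in control replicates 1, 2 and 3 and 27.7, 28.5 and 27.8 FPKM in Xbp1 siRNA replicates 1, 2 and 3. Its libraries were tight and well separated, and it rose by 0.56 on the log2 scale (SE 0.046, limma adjusted p = 9.1e-05). Adam23 showed a smaller difference, from 13.2, 12.9 and 12.6 FPKM to 15.3, 14.7 and 14.0 FPKM (log2 fold change 0.18, SE 0.06, limma adjusted p = 0.0427). The call on Adam23 was lost with the replicate number as a block (limma adjusted p = 0.0518) and without any 1 of the libraries other than Xbp1 siRNA replicate 3, where the limma adjusted p reached up to 0.129.

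Among the ADAMTS proteases 1 of 5 passed. Adamts7, which cuts cartilage oligomeric matrix protein, had 5.92, 5.13 and 5.03 FPKM in control and 7.19, 6.88 and 6.33 FPKM after silencing, higher without overlap (log2 fold change 0.34, SE 0.099, limma adjusted p = 0.0292). The call on Adamts7 was lost on leaving out control replicate 2, control replicate 3 or either of Xbp1 siRNA replicates 1 and 2, with limma adjusted p up to 0.093. Adamts6 was the most abundant of this group, at 7.78, 9.61 and 7.97 FPKM in control and 9.64, 8.88 and 9.06 FPKM after silencing, and its libraries overlapped (log2 fold change 0.13, limma adjusted p = 0.346). The aggrecanases Adamts1 and Adamts4 and the procollagen peptidase Adamts3 overlapped as well. Their log2 fold changes were 0.29, 0.00 and 0.21, on 181, 53 and 259 recovered reads over the control libraries and 242, 58 and 329 over the silenced ones.

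ADAMTS-like proteins share the ancillary domains of the ADAMTS enzymes without the protease and associate with fibrillin microfibrils. Adamtsl5 had 21.8, 20.4 and 23.1 FPKM in control and 34.9, 33.1 and 31.8 FPKM after silencing. It was higher in every silenced library, with means of 21.8 ± 1.35 and 33.3 ± 1.53 FPKM (SD, n = 3 each), 1.53-fold (log2 fold change 0.61, SE 0.061, limma adjusted p = 0.00023). Adamtsl4 lay the other way, at 6.36, 6.27 and 5.99 FPKM in control and 4.76, 5.58 and 5.59 FPKM after silencing, but did not pass (log2 fold change −0.23, limma adjusted p = 0.101).

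**Figure D4:**
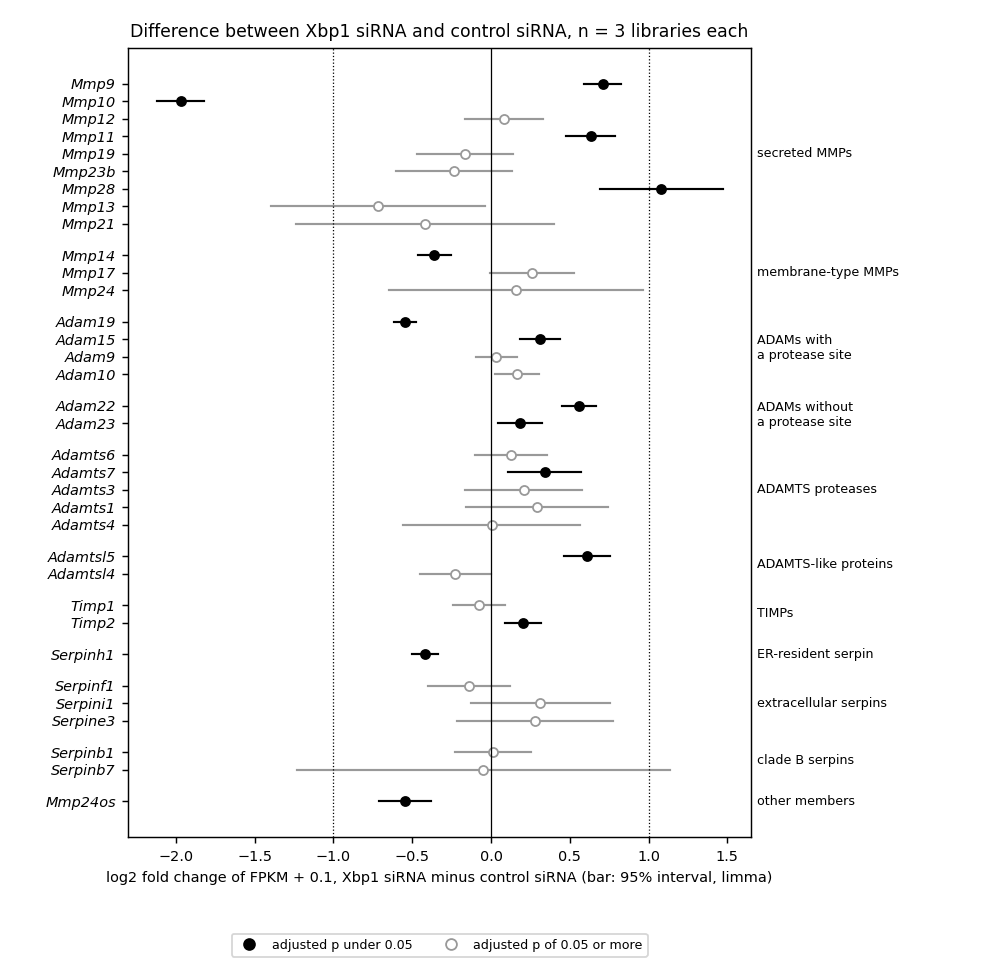
Log2 fold change of FPKM + 0.1 (Xbp1 siRNA minus control siRNA, n = 3 libraries each) for 34 of the 35 members by role, with bars for the 95% interval from limma. Filled points mark the 14 of these with an adjusted p under 0.05, 9 to the right of 0 and 5 to the left, and dotted lines mark the fold limit of 1.

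Of the tissue inhibitors, Timp2 was slightly higher and Timp1 did not pass. Timp1, which binds most MMPs, had 173, 158 and 142 FPKM in control replicates 1, 2 and 3 and 156, 147 and 145 FPKM in Xbp1 siRNA replicates 1, 2 and 3. The conditions overlapped, and the 95% interval of its log2 fold change of −0.07 ran from −0.24 to 0.09 (limma adjusted p = 0.451), with a positive value of 0.02 under quantile normalization. Timp2 had 62.5, 56.4 and 56.0 FPKM in control and 66.9, 67.4 and 66.9 FPKM after silencing, higher without overlap by 0.20 on the log2 scale (SE 0.049, limma adjusted p = 0.0132). Timp3 was at 0 reads in control and at 1, 1 and 0 reads after silencing, and Timp4 was listed at 0.

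For the balance of MMP and TIMP mRNA the conditions overlapped. The summed FPKM of Timp1 and Timp2 was 235, 215 and 198 in control and 222, 215 and 212 after silencing. The MMP sum divided by the TIMP sum was 1.24, 1.33 and 1.40 in control and 1.34, 1.28 and 1.29 after silencing, and these ratios overlapped.

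Serpinh1 (HSP47), a serpin that inhibits no protease and serves in the ER as a chaperone of procollagen, was the most abundant member in both conditions. It stood at 481, 463 and 470 FPKM in control replicates 1, 2 and 3 and at 368, 343 and 347 FPKM in Xbp1 siRNA replicates 1, 2 and 3. All silenced libraries were lower, with means of 471 ± 8.78 and 353 ± 13.1 FPKM (SD, n = 3 each), 74.8% of control (log2 fold change −0.42, SE 0.035, limma adjusted p = 9.67e-05). Its share of the summed FPKM of all members was 33.0% to 34.1% in control and 27.7% to 28.3% after silencing. Col1a1 and Col1a2, the collagen I genes whose products it folds, were listed at 0 in all libraries. Other collagen genes were not examined here.

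Of the serpins outside the cell, Serpinf1, Serpini1 and Serpine3 did not pass. Serpinf1 (pigment epithelium-derived factor) had 12.2, 10.6 and 11.8 FPKM in control and 9.37, 9.87 and 12.3 FPKM after silencing, with overlap (log2 fold change −0.14, limma adjusted p = 0.361). Serpini1 (neuroserpin, an inhibitor of tissue plasminogen activator) and Serpine3 had log2 fold changes of 0.31 and 0.28, with overlapping libraries. Serpine2 was listed at 0 in all 6 libraries.

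The clade B serpins, which stay mostly inside the cell, were unlike in level and neither passed. Serpinb1 (leukocyte elastase inhibitor) had 9.31, 10.1 and 10.3 FPKM in control and 9.16, 11.6 and 9.39 FPKM after silencing (log2 fold change 0.01, 95% interval −0.23 to 0.26). Serpinb7 was too low to judge, at 4, 4 and 3 recovered reads in control and 5, 1 and 8 after silencing.

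Some members overlap another gene in RefSeq on either strand. Of 25 members whose place could be compared, 7 did, and beside Mmp28, Mmp24 and Mmp24os they include Mmp21, Timp1 and Timp2. Mmp9, Mmp10, Adam10, Adam19 and Serpinh1 overlapped none.

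The genes that act with these enzymes were examined through 6 lists of 65 genes, of which 34 reached 0.1 FPKM. Of the 34, 19 were higher (55.9%) and 3 lower (8.82%) at an adjusted p under 0.05, where 20.2% of all genes tested passed in each direction. With the fold limit 7 were higher (20.6%) and 1 lower (2.94%), against 2.69% and 2.5% of all genes. Among the genes counted as higher, Tspan33 reached 0.1 FPKM through the silenced libraries alone (means of 0.0443 and 0.751 FPKM), so that the filter favoured its count, and F12, which did not pass, reached it through the control libraries alone. The median log2 fold change of the 34 was 0.24. These lists were drawn up with earlier results of the same data known.

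The plasminogen activators, serine proteases that turn plasminogen into plasmin and so can activate MMP precursors, were both higher. Plau (urokinase) had 1.62, 1.72 and 2.29 FPKM in control and 6.49, 7.65 and 6.57 FPKM after silencing, 3.68-fold by the means (log2 fold change 1.84, SE 0.15, limma adjusted p = 9.33e-05). Plat (tissue plasminogen activator) had 6.03, 6.10 and 5.32 FPKM in control and 20.9, 19.6 and 21.4 FPKM after silencing, 3.54-fold (log2 fold change 1.81, SE 0.078, limma adjusted p = 5.35e-06). For both genes every silenced library was above every control library. The summed FPKM of Plau and Plat was 7.65, 7.82 and 7.61 in control and 27.4, 27.2 and 28.0 after silencing, without overlap.

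Receptors on the plasminogen list lay differently. Plaur, the urokinase receptor, had 72.7, 68.1 and 65.4 FPKM in control and 71.0, 63.2 and 62.4 FPKM after silencing and did not pass (log2 fold change −0.07, limma adjusted p = 0.414). S100a10, which with annexin A2 binds plasminogen at the cell surface, went from 368, 356 and 350 FPKM to 162, 197 and 175 FPKM, lower without overlap (log2 fold change −1.01, SE 0.067, limma adjusted p = 3.22e-05). The fold limit was missed for S100a10 without control replicate 1 (−0.99), without Xbp1 siRNA replicate 1 (−0.95) and under quantile normalization (−0.88). Its partner Anxa2 was lower too, with means of 338 ± 12.3 and 230.0 ± 10.5 FPKM (SD, n = 3 each, log2 fold change −0.55, limma adjusted p = 6.73e-05). Of the 10 genes tested on this list, 3 were higher, 3 lower (with Thbd, at −0.46) and 4 did not pass. Lrp1, a clearance receptor and the other gene that was higher (0.17), lost its call in 4 of the sets with 1 library left out (limma adjusted p up to 0.0884).

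**Figure D5:**
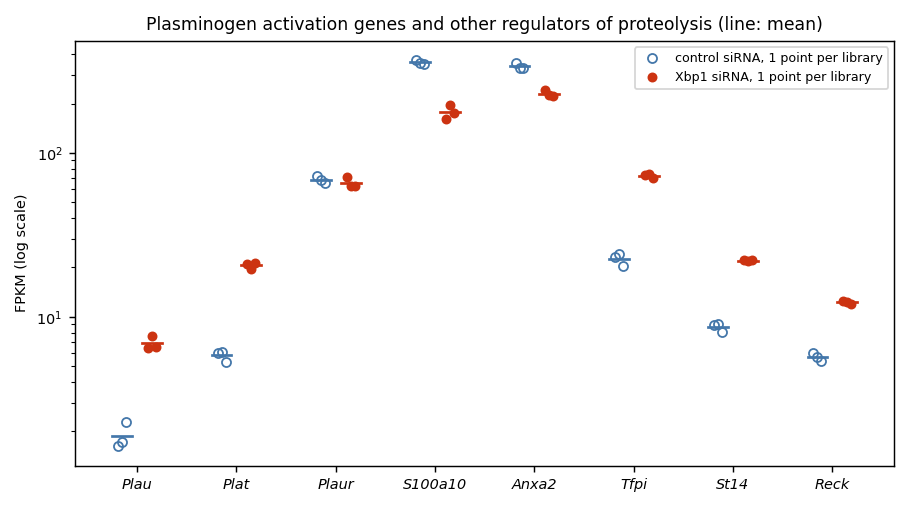
FPKM on a logarithmic axis for Plau, Plat, Plaur, S100a10, Anxa2, Tfpi, St14 and Reck, 1 point per library with a line at the mean of each condition. Plau, Plat, Tfpi, St14 and Reck are higher in all Xbp1 siRNA libraries, S100a10 and Anxa2 are lower in all of them, and Plaur overlaps.

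Of 3 membrane serine proteases and Kunitz inhibitors tested, 2 were higher. Tfpi, a Kunitz inhibitor of the tissue factor pathway, had 23.2, 24.1 and 20.3 FPKM in control and 72.8, 74.2 and 70.2 FPKM after silencing, 3.21-fold without overlap (log2 fold change 1.68, SE 0.067, limma adjusted p = 4.18e-06). St14 (matriptase), a membrane serine protease of epithelia, had 8.95, 9.09 and 8.04 FPKM in control and 22.1, 22.0 and 22.1 FPKM after silencing (log2 fold change 1.33, SE 0.065, limma adjusted p = 7.96e-06). Epcam, an epithelial marker, moved with it, from 1.83 ± 0.105 to 4.72 ± 0.644 FPKM (SD, n = 3 each), and its part in this result was not tested. Reck, a membrane-anchored inhibitor of MMPs that is no TIMP, had 6.001, 5.67 and 5.38 FPKM in control and 12.6, 12.3 and 11.96 FPKM after silencing, 2.16-fold (log2 fold change 1.099, SE 0.073, limma adjusted p = 3.2e-05). With a pseudocount of 1 the log2 fold change of Reck was 0.99.

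Proprotein convertases cut the precursors of many ADAMs and membrane-type MMPs, and 2 of the 5 tested were higher. Furin had 29.6, 30.8 and 29.3 FPKM in control and 39.4, 36.4 and 34.1 FPKM after silencing, without overlap (log2 fold change 0.29, SE 0.06, limma adjusted p = 0.00692). Pcsk7 rose by 0.47 on the log2 scale (limma adjusted p = 0.000219). Pcsk4 had the largest difference on the list and lay the other way, at 0.385, 0.659 and 0.393 FPKM in control and 0.215, 0.112 and 0.237 FPKM after silencing, but did not pass (log2 fold change −1.005, limma adjusted p = 0.0578). Among 4 genes of procollagen processing and related metalloproteases, 2 were higher, while Pcolce2 (log2 fold change −0.13) and Ece1 (−0.15) did not pass. Bmp1, the procollagen C-proteinase, had 36.1, 35.3 and 33.3 FPKM in control and 43.0, 39.4 and 41.2 FPKM after silencing (log2 fold change 0.24, limma adjusted p = 0.00784). Pcolce, which enhances that cut, went from 78.7 ± 3.74 to 146.5 ± 6.14 FPKM (SD, n = 3 each, log2 fold change 0.90, limma adjusted p = 1.29e-05).

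Of 7 other regulators, 6 were higher, including Tspan33, which was tested only because of its level after silencing. They are Reck, the MMP inducer Bsg (0.15), the inactive rhomboid proteins Rhbdf1 (0.28) and Rhbdf2 (0.67), and Tspan14 (0.31) and Tspan33, tetraspanins that escort Adam10 to the cell surface, with log2 fold changes in parentheses. The calls on Rhbdf1 and Bsg were lost in most alternatives, with limma adjusted p up to 0.118 and 0.116. Tspan33 was at 0, 1 and 1 recovered reads in control and at 15, 11 and 11 after silencing, a depth-scaled ratio of 17.1 with a 95% counting interval of 4.4 to 146.0. Its fitted log2 fold change depended on the pseudocount, at 2.58 with 0.1, 4.27 with 0.01 and 0.74 with 1, the last under the fold limit. Of the cathepsins and cystatins 4 of 5 were higher, and of these Ctsb, Ctsd and Ctsh by 0.14 to 0.34 on the log2 scale. The call on Ctsd was lost in 4 alternatives (limma adjusted p up to 0.0762). Cst6 (cystatin E/M), a cysteine protease inhibitor, rested on 3, 8 and 4 recovered reads in control and 15, 13 and 11 after silencing (log2 fold change 1.17, limma adjusted p = 0.0356). The call on Cst6 was lost on leaving out control replicate 1, control replicate 3 or either of Xbp1 siRNA replicates 1 and 2, with limma adjusted p up to 0.109.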

How the data were processed

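Gene values were deposited by the authors as FPKM, 1 file per library with 27873 entries. The submitters' processing notes name HISAT2 2.1.0 and Cuffdiff 2.2.1, and genome build and annotation are not given in the sources used here. Libraries were made with a stranded mRNA kit. FPKM values are not counts, so the count model of the study's methods (DESeq2) was not run here, and its limits on false discovery rate and fold were kept. Genes with a mean of at least 0.1 FPKM (14361, repeated symbols kept apart) were tested on log2(FPKM + 0.1) with limma 3.58.1 (lmFit, eBayes with trend) in R 4.3.3, with Benjamini-Hochberg adjustment over all of them. On 10 simulated sets of 14361 genes with 200 changed by 1.5 on the log2 scale, 77.4% of these were called, with 3.1 false calls on average. Groups and replicate numbers came from the sample titles, which do not say whether libraries are separate transfections, so p-values measure the spread between these libraries.

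Low genes whose values fell on whole multiples of a step (82.3% of 3065 genes, tolerance 0.03 reads, against 1.08% after a random shift) were expressed in recovered reads, and these and their intervals cover counting error only. Recovered reads are the smallest whole numbers that match, so a common factor cannot be seen. The 3065 genes had a mean of at most 0.8 FPKM and values above 0 in at least 4 libraries. Mmp2 and Timp3, above 0 in fewer libraries, and Adamts1 and Adamts3, with higher means, lay outside that check. Members and lists were chosen with earlier results of these data known. Values in every library are given for members that passed both limits, those with an adjusted p under 0.05 and a mean of at least 5 FPKM, the most abundant pair of each role and preset genes. A RefSeq gene table (assembly CriGri-PICRH) gave names (35 of 35 members), gene order and overlaps, without coordinates, and members on a chromosome name shared by several sequences were not compared for overlap. The values of 2 genes that match the symbol pattern are not reported here; 1 of them is counted among the 35 members. Tables and figures were made in Python 3.11.15 (numpy 2.4.6, scipy 1.17.1, pandas 2.3.3, matplotlib 3.10.9). The alternatives were other pseudocounts (1 and 0.01), other filters (1 FPKM or none), median-ratio scaling, quantile normalization, eBayes without trend, no fold limit, a replicate block and each library left out in turn.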

Additional observations from a re-analysis of the deposited data

How the results depend on the processing

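Over the 14 alternatives that kept both limits, thus without the one that drops the fold limit, the 35 members gave 484 values. Of these, 465 kept their direction and their side of the joint limit on adjusted p and fold. The 15 members with an adjusted p under 0.05 never changed sign, and 13 of them kept an adjusted p under 0.05 throughout, the exceptions being Adam23 and Adamts7. Log2 fold changes that changed sign all belonged to members or a neighbour that had not passed. With 1 library left out in turn, they ran from −0.0045 to 0.088 for Adam9, −0.064 to 0.096 for Adamts4, −0.028 to 0.14 for Mmp12, −0.17 to 0.34 for Mmp24, −0.091 to 0.076 for Serpinb1, −0.43 to 0.50 for Serpinb7 and −0.065 to 0.22 for CUNH17orf50. Under quantile normalization the sign changed for Adamts4 (−0.049), Serpinb1 (−0.011), Timp1 (0.022) and CUNH17orf50 (−0.022), and with a pseudocount of 1 for Serpinb7 (0.028).

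With a pseudocount of 1, 114 of all genes passed higher and 205 lower, 0 members higher and 4 companion genes higher, since a larger pseudocount shrinks the folds of low genes. A filter at 1 FPKM, which tests fewer genes, left 242 of all genes higher. Quantile normalization gave 0 members higher and 2 lower. Without a filter, and with eBayes without trend, 2 companion genes were lower. The cause was not tested for the last 3. With no fold limit the counts were 2898 higher and 2904 lower of all genes, 9 and 6 of the members and 19 and 3 of the companion genes. With 1 library left out, 0 to 1 members were higher and 1 to 2 lower, and 0 to 1 companion genes were lower. Cst6 lost its call in 7 alternatives. The log2 fold change of Xbp1 lay between −3.89 and −3.28.

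Samples with the same replicate number did not deviate together (r = −0.029, −0.027 and −0.012 over 14361 genes). That check gave all genes equal weight, low ones included, so it cannot exclude a batch shared by replicate number. With the replicate number as a block, which lost the call on Adam23, 363 of all genes were higher and 353 lower, 1 member was higher and 1 lower, and 7 companion genes were higher and 1 lower. Depth limits Mmp2, Mmp13, Mmp21, Mmp24, Serpinb7 and Timp3, which rest on few reads.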
